A study of Mus musculus with 16 samples.

Results

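The immunity-related GTPases (IRGs) are proteins that cells of the mouse make after interferon. Effector members load onto the membrane of the vacuole around an intracellular parasite or bacterium and help to break it, while the Irgm members, which sit on the cell's own membranes, hold the effectors inactive there. Most of the genes lie in clusters on mouse chromosome 11, where neighbouring copies can be close to identical. The genes described here are 9 of the 38355 genes in the deposited values: Irgm1, Irgm2 and Igtp (also called Irgm3), which encode the regulatory kind; Tgtp1, Tgtp2, Ifi47 and Iigp1, which encode effectors; and the paired genes 9930111J21Rik1 and 9930111J21Rik2, which have no assigned role in the files. They were taken by symbol, and were selected on the KO against WT values of these libraries, where 9930111J21Rik2 and Tgtp1 had stood out. KO against WT values of the members are therefore given as a description with no test, and their tests are kept for changes between B-cell subsets.

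RNA-Seq was run on splenic B-cells of Mir146a-/- (KO) and wild-type (WT) mice, both on a C57BL/6 background and untreated, sorted as transitional T1 and T2, marginal zone (MZ) and follicular (FO) B-cells. KO mice lack miR-146a in every cell. Each of the 8 groups had 2 biological replicates, 16 libraries in all, and each replicate pooled the spleens of several mice. The WT mice were purchased, and the paper names a strain for these mice only. KO and WT mice are not stated to be littermates, and no age is given for the mice of these libraries. The sort took T1 as CD23- AA4+ IgMhigh CD21-/low, T2 as CD23+ AA4+ IgMhigh CD21low, MZ as CD23- AA4- IgMhigh CD21high and FO as CD23+ AA4- IgMlow CD21int cells.

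The values are RPKM, mapped reads scaled by exon length and by library total, and whole reads could be recovered from them. Libraries held 9003343 to 26386684 reads. The targeted gene had at most 1 read in a library, and its short transcript cannot check the genotype labels. The B-cell markers Cd79a, Cd79b, Ms4a1, Pax5 and Cd22 were at 89.8 RPKM or more in each library. Of 11 measured macrophage and monocyte markers, 8 exceeded 1 RPKM in at least 1 library, and their summed level was 9.42 to 84.6 RPKM in KO and 9.51 to 66.4 RPKM in WT. Summed neutrophil markers, 4 of 6 above 1 RPKM, were at 2.60 to 64.3 RPKM in KO and 0.723 to 57.6 RPKM in WT. They were higher in KO without overlap in T1 B-cells, at 9.63 and 53.4 RPKM, against 4.72 and 4.71 RPKM in WT, and in MZ B-cells, at 19.5 and 31.4 RPKM, against 5.16 and 8.79 RPKM in WT. Both kinds of cell can make IRGs, and the part of these cells in the results was not tested. The T1 replicate 2 libraries stood apart, with 25.7% of the summed RPKM in the 10 highest genes in KO and 22.9% in WT, against 9.49% to 15.5% elsewhere. Summed plasma cell markers were at 4027 RPKM in the KO and 2936 RPKM in the WT library of these, at 1212 RPKM (KO) and 642 RPKM (WT) in T1 replicate 1, and at 60.0 to 193 RPKM in the libraries of the other subsets.

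On GRCm38, 6 of the genes form a cluster of chromosome 11 on the same side of Mir146, the gene of miR-146a (chr11:43374397-43374461). They are Irgm1 (ENSMUSG00000046879, chr11:48861968-48871683), 9930111J21Rik1 (ENSMUSG00000069893, chr11:48946150-48979398), Tgtp1 (ENSMUSG00000078922, chr11:48985327-48994172), 9930111J21Rik2 (ENSMUSG00000069892, chr11:49015874-49051242), Tgtp2 (ENSMUSG00000078921, chr11:49057194-49064206) and Ifi47 (ENSMUSG00000078920, chr11:49076587-49096974). Their distance from Mir146 is 5.49 to 5.70 Mb. Igtp (ENSMUSG00000078853, chr11:58199556-58207591) and Irgm2 (ENSMUSG00000069874, chr11:58199618-58222782) lie 14.8 Mb from Mir146, overlap each other on the plus strand and share 162 bases of exon. Iigp1 (ENSMUSG00000054072) is the one member on another chromosome, 18. All 9 encode proteins.

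Many interferon-inducible promoters carry elements bound by factors that act downstream of interferon receptors, the gamma-activated site (GAS) and the interferon-stimulated response element (ISRE). RefSeq promoters of GRCm38.p6 were used for 8 members, each from 250 bases before to 50 bases after the annotated start. The promoter of Iigp1 was left out and not searched, so the shares below say nothing of this gene. The 8 were searched on both strands for TTCNNNGAA (GAS) and for the ISRE core, the letters GAAA repeated after any 2 bases. An ISRE core was present in 6 of the 8 and a GAS in 4 of the 8, against 3.44% and 8.30% of the 32851 promoters in the table. In Tgtp1, Tgtp2, Igtp and Irgm2 the GAS stood 2 bases before the ISRE core. This arrangement was looked for after it had been seen. It occurred in 5 of the 32851 promoters (0.0152%), these 4 and Gm12185, a family gene of the same cluster. The stretches are shown because the same layout recurs in paralogs whose RNA behaved differently below, with GAS and ISRE core in capitals and written along the gene's own strand:
Tgtp1 (chr11:48992310-48992338, minus strand): ccatTTCCAGGAAtcGAAACTGAAAccta
Tgtp2 (chr11:49064269-49064297, minus strand): ccatTTCCAGGAAtcGAAACCGAAAccta
Igtp (chr11:58199507-58199535, plus strand): ccatTTCTAGGAActGAAACTGAAAgctg
Irgm2 (chr11:58214898-58214926, plus strand): ccatTTCCAGGAActGAAACTGAAAgctg
Over these 29 bases Tgtp1 and Tgtp2 differed at 1 base, Igtp and Irgm2 at 1 base, and Tgtp1 and Irgm2 at 4 bases. Upstream of Irgm1 were 2 overlapping ISRE cores and no GAS, and 9930111J21Rik1 had an ISRE core just after its start, shown with the cores in capitals:
Irgm1 (chr11:48871431-48871454, minus strand): tcaaGAAATAGAAACCGAAActga
9930111J21Rik1 (chr11:48979342-48979359, minus strand): tctgGAAATAGAAActaa
Neither motif was in the windows of 9930111J21Rik2 and Ifi47. The 9930111J21Rik2 window matched that of 9930111J21Rik1 at all 283 of 283 bases once shifted by 17 bases, so it ended within the position of the ISRE core of its copy. A motif match describes these letters and does not show binding.

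The copies also limit what RNA-Seq can separate, because only uniquely aligned reads were kept. Of the windows of 100 bases, the read length, in the annotated transcripts of Tgtp1, 73.1% occurred unchanged in another gene, and in Tgtp2 76.8%. The share was 70.5% in 9930111J21Rik1 and 48.3% in 9930111J21Rik2, nearly all of it within the pair. It was 5.16% in Igtp and 3.01% in Irgm2, shared between the 2, and 0.842% in Ifi47. No window was shared in Irgm1 or Iigp1. RPKM divides the kept reads by the full exon length. Values of Tgtp1, Tgtp2, 9930111J21Rik1 and 9930111J21Rik2 thus rest on parts of each transcript, are likely understated beside the other members and are uncertain. No source says that reads were counted by strand, and Ifi47 shares 106 bases of exon with Gm12188, a pseudogene on the opposite strand. Tgtp1 shares 223 bases with Gm12185 on its own strand.

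9930111J21Rik2 was nearly absent in KO and among the most abundant members in WT. In T1 B-cells it was at 0.383 and 0.187 RPKM in KO, against 24.7 and 27.3 RPKM in WT, and in T2 B-cells at 0.344 and 0.294 RPKM in KO, against 36.2 and 36.9 RPKM in WT. In MZ B-cells it was at 0.327 and 0.397 RPKM in KO, against 32.7 and 44.4 RPKM in WT, and in FO B-cells at 0.332 and 0.391 RPKM in KO, against 29.7 and 41.2 RPKM in WT. The groups were far apart in each subset, with WT means 91.2 to 115 times the KO means. A library held 19 to 68 reads of it in KO and 2173 to 6778 in WT. Its paralog did not share this loss: 9930111J21Rik1 ranged over 15.8 to 32.4 RPKM in KO and 14.9 to 27.6 RPKM in WT. 9930111J21Rik2 made up 1.07% to 1.81% of the summed RPKM of the pair in KO and 56.5% to 66.9% in WT. More windows were shared in 9930111J21Rik1 (70.5%) than in 9930111J21Rik2 (48.3%), so this share is likely overstated in both genotypes. The sum itself had a median of 22.6 RPKM in KO and 54.9 RPKM in WT, with ranges of 15.9 to 32.8 RPKM and 39.7 to 72.0 RPKM that did not overlap.

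Tgtp1, whose protein coats the parasite's vacuole, went the other way. It was at 1.79 and 1.08 RPKM in KO T1 B-cells, against 0.249 and 0.516 RPKM in WT, and at 2.96 and 2.33 RPKM in KO T2 B-cells, against 0.416 and 0.321 RPKM in WT. In MZ B-cells Tgtp1 was at 3.44 and 2.50 RPKM in KO, against 0.276 and 0.479 RPKM in WT, and in FO B-cells at 3.69 and 2.24 RPKM in KO, against 0.319 and 0.492 RPKM in WT. Every KO library lay above every WT library, and KO means were 3.75 (T1) to 7.88 (MZ) times the WT means. The gene was low in both genotypes, with 50 to 264 reads a library in KO and 10 to 37 in WT. Tgtp2, the near-identical copy, did not share the difference. Its range was 1.48 to 4.13 RPKM in KO and 1.54 to 5.48 RPKM in WT, and the libraries overlapped in all 4 subsets. Tgtp1 therefore held 42.1% to 53.1% of the summed RPKM of the pair in KO (median 48.1%) and 6.77% to 25.1% in WT (median 10.7%). In KO the recovered reads of the pair were close in several libraries, 149 for Tgtp1 and 145 for Tgtp2 in MZ replicate 1 and 264 and 271 in FO replicate 1, and farther apart in others, 105 and 85 in T2 replicate 2, while WT replicate 1 had 16 and 202 in MZ and 27 and 313 in FO. The sum of the pair overlapped between genotypes, at 2.56 to 7.81 RPKM in KO and 2.06 to 5.898 RPKM in WT.

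**Figure D1:**
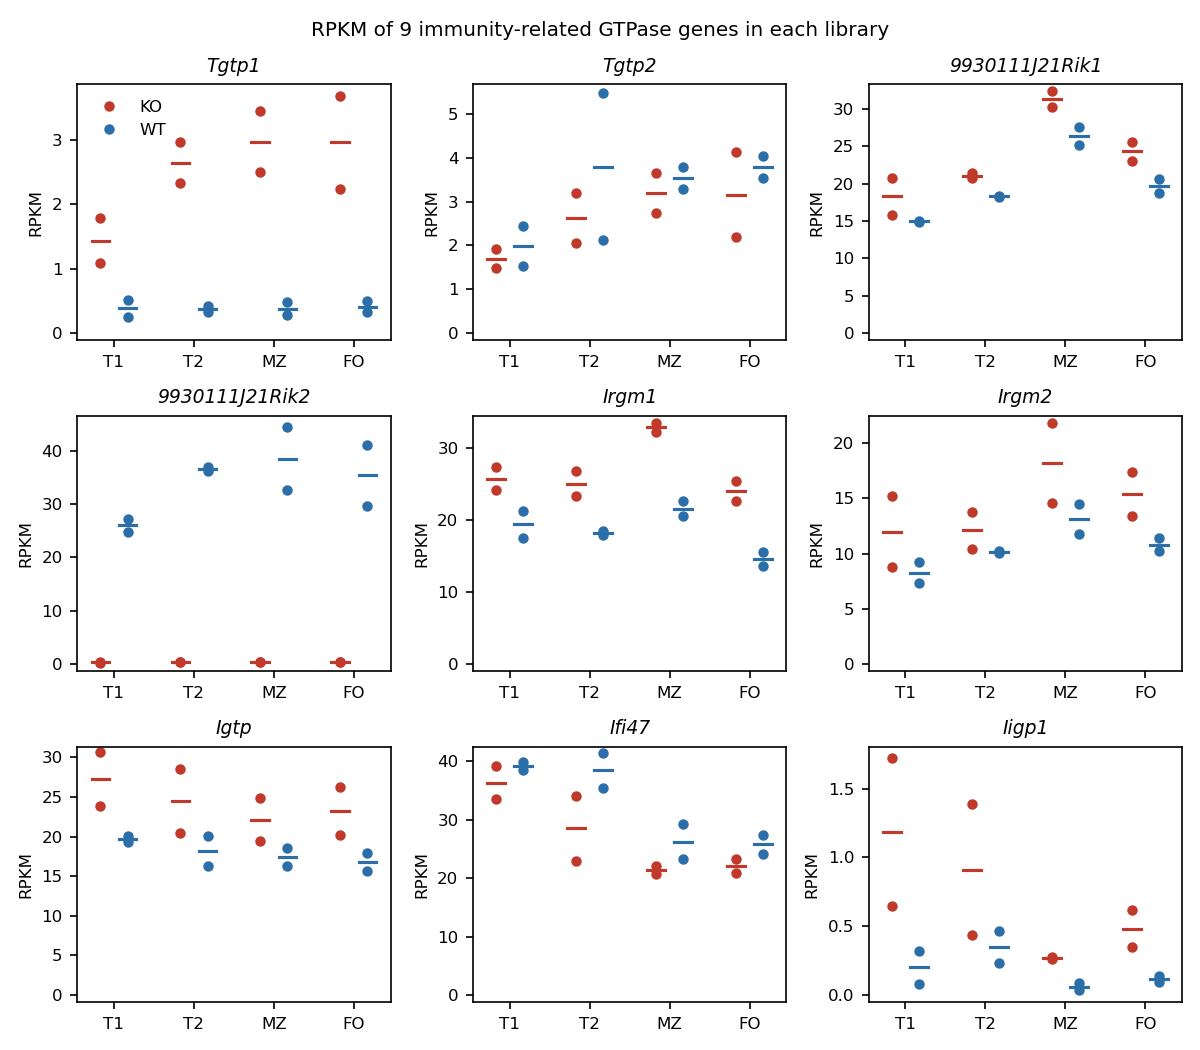
RPKM of each of the 9 genes (vertical axis, linear, own scale per panel) in T1, T2, MZ and FO B-cells (horizontal axis), with 1 point per library and a line at the mean of the 2 libraries of a group, KO in red left of WT in blue. 9930111J21Rik2 lies at 0.187 to 0.397 RPKM in KO, and Tgtp1 lies above WT in every KO library.

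**Figure D2:**
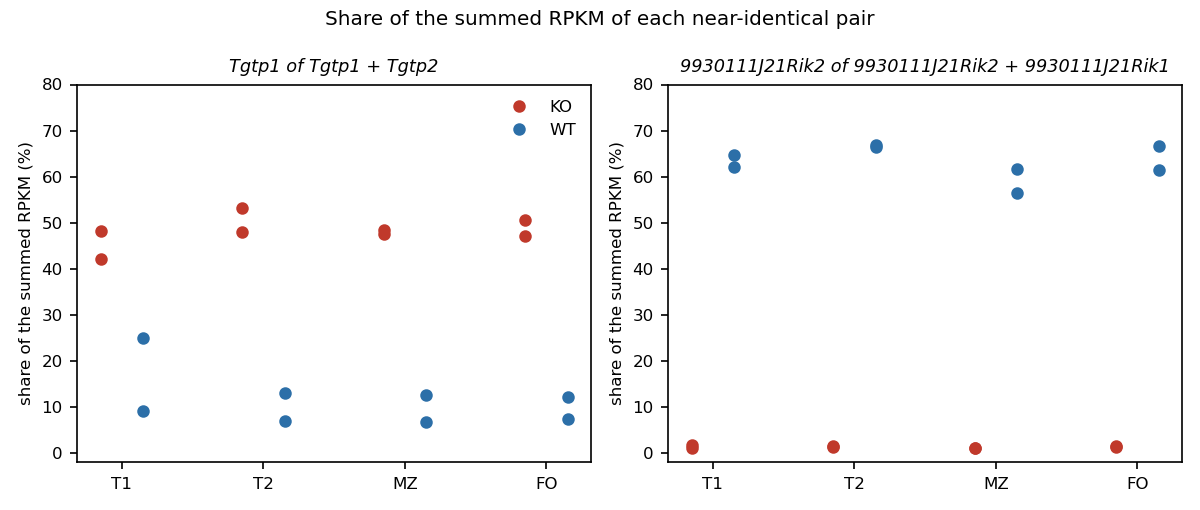
Share (%, vertical axis) that Tgtp1 takes of the summed RPKM of Tgtp1 and Tgtp2 (left), and 9930111J21Rik2 of that of 9930111J21Rik2 and 9930111J21Rik1 (right), with 1 point per library, by subset, KO in red left of WT in blue. The Tgtp1 share is 42.1% to 53.1% in KO and 6.77% to 25.1% in WT, and the 9930111J21Rik2 share at most 1.81% in KO and at least 56.5% in WT.

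The regulatory IRGs were modestly higher in KO. Irgm1 was at 27.3 and 24.1 RPKM in KO T1 B-cells, against 21.2 and 17.5 RPKM in WT, and at 26.7 and 23.2 RPKM in KO T2 B-cells, against 18.5 and 17.9 RPKM in WT. In MZ B-cells Irgm1 was at 33.5 and 32.1 RPKM in KO, against 20.5 and 22.6 RPKM in WT, and in FO B-cells at 25.4 and 22.6 RPKM in KO, against 13.6 and 15.6 RPKM in WT. KO means were 1.33 (T1) to 1.64 (FO) times the WT means, and the groups did not overlap in any subset. Igtp was at 19.4 to 30.6 RPKM in KO and 15.7 to 20.1 RPKM in WT, with no overlap within a subset and ratios of 1.27 to 1.38. Irgm2 was at 8.76 to 21.8 RPKM in KO and 7.31 to 14.5 RPKM in WT, with ratios of 1.19 to 1.45 and an overlap in T1. Neutrophil markers were also higher in KO in T1 and MZ B-cells, and T cell markers in MZ B-cells, with the sums given above. Their part was not tested.

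Of the remaining effectors, Ifi47 was the one with lower means in KO in all 4 subsets beside Tgtp2. It was at 39.2 and 33.5 RPKM in KO T1 B-cells, against 39.9 and 38.5 RPKM in WT, and at 34.1 and 23.0 RPKM in KO T2 B-cells, against 41.5 and 35.5 RPKM in WT. In MZ B-cells Ifi47 was at 22.1 and 20.7 RPKM in KO, against 23.3 and 29.2 RPKM in WT, and in FO B-cells at 23.3 and 20.8 RPKM in KO, against 24.1 and 27.5 RPKM in WT. Its libraries overlapped in T1 only, and KO means were 0.740 to 0.928 of the WT means. Iigp1, the member on the other chromosome, was at 0.261 to 1.72 RPKM in KO (11 to 60 reads) and 0.0339 to 0.463 RPKM in WT (2 to 14 reads). KO means of Iigp1 were 2.61 to 5.92 times the WT means, on few reads, and the libraries overlapped in T2. 9930111J21Rik1 was higher in KO without overlap in each subset, with ratios of 1.15 to 1.24.

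Counted over the members, both KO libraries lay above both WT libraries in each of the 4 subsets for 4 of the 9 genes (Tgtp1, 9930111J21Rik1, Irgm1 and Igtp), and below them for 1 (9930111J21Rik2). Among the 12507 genes tested the shares were 0.544% and 0.304%. These are set side by side as a description, since this contrast chose the genes. On the log2(RPKM + 0.5) scale, which understates changes of low genes, the mean difference over the 4 subsets was -5.36 for 9930111J21Rik2, 1.72 for Tgtp1, 0.74 for Iigp1, 0.54 for Irgm1, 0.41 for Igtp, 0.40 for Irgm2, 0.25 for 9930111J21Rik1, -0.24 for Tgtp2 and -0.27 for Ifi47. A difference in bulk RNA cannot tell fewer cells that express a gene from less RNA per cell.

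Replicates of KO differed in a shared way. Replicate 1 lay above replicate 2 in all 4 KO subsets for 6 of the 9 members (Tgtp1, Tgtp2, Irgm1, Irgm2, Igtp and Ifi47), which held for 11.8% of tested genes, and in all 4 WT subsets for Tgtp2 alone, against 7.95% of tested genes. The ratio of replicate 1 to replicate 2 in KO was 1.28 to 1.398 for Igtp and 1.30 to 1.74 for Irgm2. Summed macrophage markers moved opposite to this in the KO replicates, at 9.42 RPKM in replicate 1 and 21.1 RPKM in replicate 2 of FO and at 11.3 and 64.1 RPKM in T1. They were higher in replicate 2 of each WT subset too, and their part was not tested.

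The members of the cluster on chromosome 11 were chosen on KO against WT values, so shares that include them restate that choice. Of the 16 tested genes at 5 to 6 Mb from Mir146, 25.0% had a mean difference beyond 0.5 on the log2 scale, compared with 4.67% of all 1070 tested genes of the chromosome and 3.25% of the 11437 on others. The 4 genes were Tgtp1, 9930111J21Rik2, Irgm1 and its neighbour Gm5431, a family gene at 0.62. Without the 6 members 1 of 10 genes (10%) was beyond 0.5. The share was 9.52% at 0 to 5 Mb, 11.6% at 6 to 14 Mb, 3.12% at 14 to 16 Mb and 7.58% at 16 to 20 Mb on the same side of Mir146, and on the other side 0% of 9 genes up to 10 Mb and of 45 genes at 10 to 20 Mb. Among genes flanking the cluster, Gnb2l1 was at -0.06, Trim41 at 0.13, Trim7 at -0.08, Mgat1 at 0.23 and Zfp62 at -0.44. Within the cluster Psme2b-ps was at 0.36, and the members Tgtp2, 9930111J21Rik1 and Ifi47 were at -0.24, 0.25 and -0.27. Gm12188, which overlaps exons of Ifi47 on the opposite strand and may share its reads, was at -0.29. Around Igtp and Irgm2 the family gene Gm12250 (Irgb10, a pseudogene in the GENCODE annotation) was at 0.48, and Cnot8, Gemin5, Mrpl22 and Zfp692 were between 0.0008 and 0.07, with Zfp672 and Gm12246 each at 0.23. Over all genes, 13 of 12507 (0.104%) met the criteria for a call given below between KO and WT in at least 1 subset. This count includes members, from which nothing is read because KO against WT values chose them. Leaving the members aside, 5 of the genes lay on chromosome 11 and 6 on other chromosomes. Of the 5, Grm6, a glutamate receptor gene, and the antisense gene Gm12660 lay 7.48 Mb from Mir146, Lyrm7, a mitochondrial assembly factor gene, 11.5 Mb, Ccdc69 11.7 Mb and Gm12233 11.8 Mb. Lyrm7 ranged over 4.52 to 7.29 RPKM in KO and 0.632 to 1.18 RPKM in WT, with no overlap. Gm12233 ranged over 0.997 to 2.07 RPKM in KO and 2.45 to 7.06 RPKM in WT, while Ccdc69 overlapped. The median of Grm6 was 1.96 RPKM in KO (maximum 29.3) and 0.516 RPKM in WT. That of Gm12660 was 0.289 RPKM in KO (maximum 7.25) and 0.243 RPKM in WT. Their log2 differences varied by subset, from 0.29 to 3.91 for Grm6 and 0 to 3.03 for Gm12660. Linkage to the deleted locus and an effect of miR-146a cannot be told apart for these genes in this design.

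**Figure D3:**
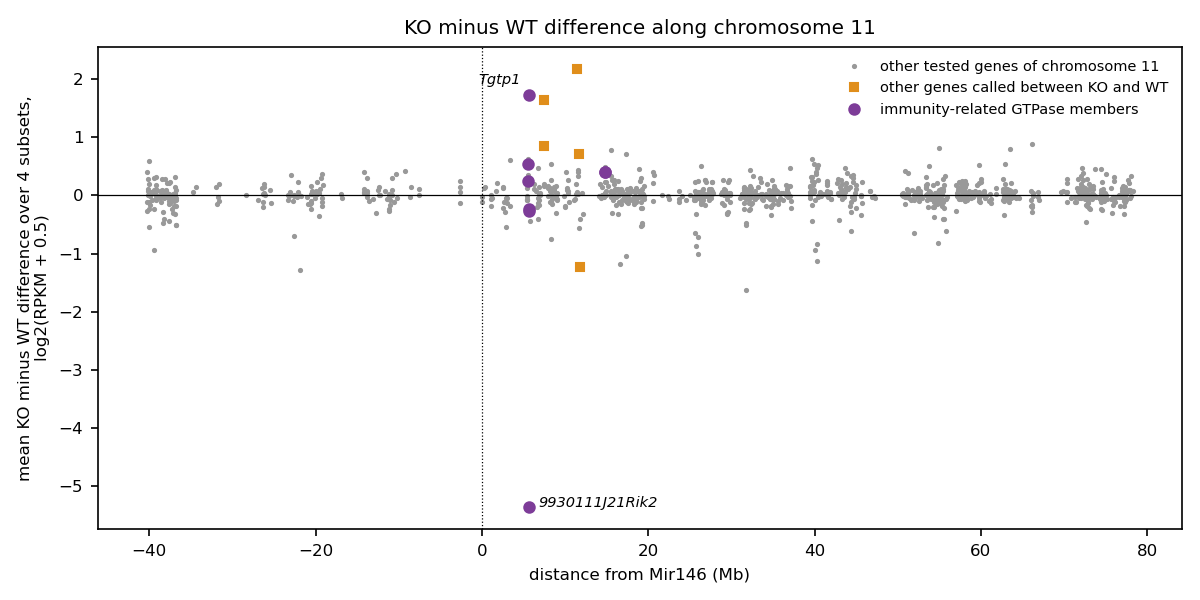
Mean KO minus WT difference over the 4 subsets on the log2(RPKM + 0.5) scale (vertical axis) against the distance from Mir146 in Mb (horizontal axis) for the 1070 tested genes of chromosome 11, with the 8 members in purple, other genes called between KO and WT as orange squares and the rest in grey. 9930111J21Rik2 is at -5.36 and Tgtp1 at 1.72, both within 5.70 Mb of Mir146.

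The deleted miRNA, miR-146a-5p (chr11:43374435-43374456, minus strand), is shown because its seed, bases 2 to 8 in capitals, sets the sites searched in the members:
miR-146a-5p: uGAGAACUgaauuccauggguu
No match to the seed of 7 or 8 bases was in the longest annotated 3′ UTR of any of the 9 members, which were 304 (Ifi47) to 3196 bases (9930111J21Rik2) long. At least 1 was in 19.3% of 21130 protein-coding genes with such a UTR. The absence of these letters says nothing of other sites.

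Between subsets, no member met all the criteria for a call. All 9 passed the filter on low values, for which the mean of some group had to exceed 1 RPKM, Tgtp1 through KO groups only, 9930111J21Rik2 through WT groups only and Iigp1 through KO T1 B-cells only. Calls came from 1 limma fit of the 16 libraries with Benjamini-Hochberg adjustment, and needed an adjusted p under 0.05, a change of more than 1 on the log2 scale and a mean above 1 RPKM in one of the groups set against each other. None of the 9 was called in any of the 8 comparisons. The level criterion fixed this in advance for 9930111J21Rik2 in KO, Tgtp1 and Iigp1 in WT, and Iigp1 in KO comparisons without T1. Their means there were all below 1 RPKM, so counts of calls say nothing of them in these comparisons. From T1 to T2 the calls over all genes were 4.37% in KO and 4.24% in WT, and with limma 1 member in KO (Tgtp1, 0.72) and 2 in WT had an unadjusted p under 0.05. From T2 to MZ they were 9.44% in KO and 10.6% in WT, from T2 to FO 0% in KO and 0.184% in WT, and from FO to MZ 8.32% in KO and 8.40% in WT. The members at an unadjusted p under 0.05 were 2 in KO and 2 in WT from T2 to MZ, 0 in KO and 2 in WT from T2 to FO, and 2 in KO and 2 in WT from FO to MZ. Over all genes the share at this level was 26.0% (KO) and 27.2% (WT) from T1 to T2, 36.5% and 40.6% from T2 to MZ, 12% and 20.9% from T2 to FO, and 34.6% and 32.9% from FO to MZ. In number, 1498 had an unadjusted p under 0.05 in limma from T2 to FO in KO, and limma-voom also called 0 there. Without the fold criterion, 2 members passed from T2 to MZ in KO and 2 in WT, none from T2 to FO, and 1 in KO and 2 in WT from FO to MZ. Over all genes this left 11.7% (KO) and 11.7% (WT) from T1 to T2, 24.9% and 28.8% from T2 to MZ, 0% and 0.24% from T2 to FO, and 22.3% and 21% from FO to MZ, and the members' counts from T2 to MZ and from FO to MZ were near or below these shares. Leaving out both T1 replicate 2 libraries, a choice made after the data were seen, left the number called at 0 in each comparison.

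9930111J21Rik1 rose in MZ B-cells. In KO it was at 30.2 and 32.4 RPKM in MZ B-cells and at 21.4 and 20.7 RPKM in T2 B-cells, with means of 31.3 ± 1.52 RPKM and 21.1 ± 0.486 RPKM (SD, n = 2 each). The change was 0.56 on the log2 scale, with a standard error of 0.12 (limma, adjusted p = 0.00603). In WT it was at 25.1 and 27.6 RPKM in MZ B-cells and 18.3 RPKM in both T2 libraries, a change of 0.51 with the same standard error (limma, adjusted p = 0.00836). The 2 MZ libraries lay above the 2 T2 libraries in both genotypes. Against FO B-cells the change was 0.36 in KO (adjusted p = 0.0520 from limma) and 0.41 in WT (adjusted p = 0.0295 from limma). Summed macrophage markers were also higher in MZ than in FO B-cells, though lower than in T2 B-cells. Their values are given with Irgm1 below, and their part was not tested. 9930111J21Rik2 had a log2 fold change of 0.06 in WT from T2 to MZ, with a standard error of 0.19, while in KO it was below the pseudocount. The WT change of 9930111J21Rik1 from T2 to MZ no longer had an adjusted p under 0.05 without WT MZ replicate 2 (adjusted p = 0.0674 from limma), and that from FO to MZ without any one of the 4 libraries compared (adjusted p of 0.0612 to 0.188 from limma).

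Irgm1, the regulator needed for resistance to many intracellular pathogens in mice, also had its highest mean in MZ B-cells in both genotypes. From FO to MZ it was higher by 0.45 on the log2 scale in KO, with a standard error of 0.12 (limma, adjusted p = 0.0224), and 0.55 in WT (adjusted p = 0.00766 from limma). From T2 to MZ it was 0.39 in KO (adjusted p = 0.0368 from limma) and 0.24 in WT (adjusted p = 0.169 from limma). The T2 to MZ change in KO no longer had an adjusted p under 0.05 with no filter on low values, with only the groups compared in the fit, and without KO T2 replicate 2 or either KO MZ library. Of the FO to MZ changes, the same held in KO without either KO MZ library or KO FO replicate 2, and in WT without WT MZ replicate 2 or WT FO replicate 1. In KO, summed macrophage markers were at 24.8 and 38.7 RPKM in MZ B-cells, against 9.42 and 21.1 RPKM in FO B-cells. In WT these markers were at 18.2 and 27.0 RPKM in MZ, against 9.51 and 16.8 RPKM in FO. They were lower in MZ than in T2 B-cells in both genotypes, and their part was not tested. Irgm2 had log2 fold changes of 0.55 in KO and 0.35 in WT from T2 to MZ that did not pass (adjusted p = 0.160 in KO and 0.348 in WT from limma). Igtp was nearly level, between -0.16 and 0.05 over the 8 comparisons.

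Ifi47 had a change from T2 to MZ of -0.38 in KO that did not pass (limma, adjusted p = 0.144). In WT it fell in MZ B-cells relative to T2 B-cells, by 0.55 on the log2 scale with a standard error of 0.18 (limma, adjusted p = 0.0382), and means of 26.2 RPKM in MZ and 38.5 RPKM in T2. Summed neutrophil markers in WT were at 5.16 and 8.79 RPKM in MZ, against 57.6 and 32.4 RPKM in T2, and macrophage markers at 18.2 and 27.0 RPKM in MZ, against 43.6 and 66.4 RPKM in T2, and their part was not tested. From T2 to FO the change was -0.34 in KO and -0.57 in WT, neither past the threshold (adjusted p = 0.458 in KO and 0.131 in WT from limma). The adjusted p of the WT T2 to MZ change was above 0.05 in 9 of 25 alternative settings. Among these were quantile normalization (adjusted p = 0.0575 from limma), leaving out both T1 replicate 2 libraries (0.0505), WT T2 replicate 1 (0.199), WT T2 replicate 2 (0.0523) or WT MZ replicate 1 (0.247). Iigp1 had its lowest means in MZ B-cells in both genotypes, with log2 fold changes from T2 to MZ of -0.79 in KO and -0.59 in WT and a standard error of 0.40, and did not pass.

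Whether the subset changes differed between KO and WT was tested as an interaction, at an adjusted p under 0.05. None of the 9 members passed for T2 to MZ or for T2 to FO in limma, 0 of them had an unadjusted p under 0.05 in either, and 1 gene of 12507 (0.008%) passed in each. The KO minus WT difference of the T2 to MZ change was -0.20 (Iigp1) to 0.23 (Tgtp2), with standard errors of 0.17 to 0.56, and that of the T2 to FO change 0.002 (Iigp1) to 0.26 (Irgm1). Each difference was smaller than its standard error, apart from that of Irgm1 from T2 to FO (0.26, standard error 0.17). The T2, MZ and FO means of 9930111J21Rik2 in KO and of Tgtp1 and Iigp1 in WT lay below the pseudocount of 0.5. The log2 scale draws such changes towards 0, so the interaction cannot tell whether subset changes of these genes differed between genotypes.

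**Figure D4:**
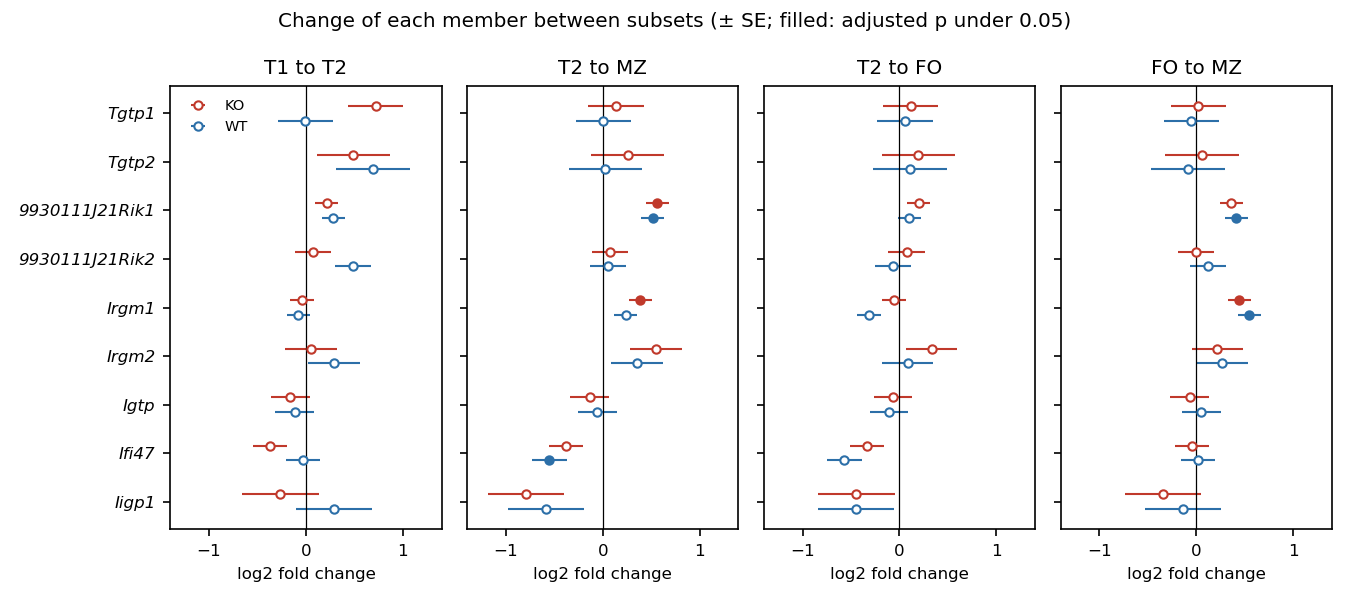
Log2 fold change on the log2(RPKM + 0.5) scale (horizontal axis, ± standard error) of each of the 9 genes (vertical axis) for T1 to T2, T2 to MZ, T2 to FO and FO to MZ, KO in red above WT in blue, with filled points at an adjusted p under 0.05. The filled points are 9930111J21Rik1 and Irgm1 in MZ B-cells, between 0.39 and 0.56, and Ifi47 at -0.55 in WT.

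By level per length, the order within a group put Ifi47 first in T1 and T2 B-cells of both genotypes, at 28.5 to 39.2 RPKM, although in WT T2 B-cells its libraries overlapped with those of 9930111J21Rik2 and in KO T2 B-cells with those of Irgm1 and Igtp. In MZ B-cells Irgm1 was first in KO (32.8 RPKM), close to 9930111J21Rik1 (31.3 RPKM), whose libraries overlapped with it. 9930111J21Rik2 was first in WT MZ (38.5 RPKM) and WT FO (35.4 RPKM). In KO FO B-cells, 9930111J21Rik1, Irgm1, Igtp and Ifi47 lay between 22.1 and 24.3 RPKM and overlapped. Irgm2 followed in each group, at 8.27 to 18.2 RPKM, and Tgtp2, Tgtp1 and Iigp1 had means below 4 RPKM in each group. RPKM likely understates Tgtp1, Tgtp2, 9930111J21Rik1 and 9930111J21Rik2, because reads from their shared windows were discarded. The order therefore does not rank these copies against the other members by expression.

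Pearson correlation of log2(RPKM + 0.5) over the 16 libraries, which share subset and genotype and may share pools of mice, is given as a description. Among the non-member genes most like Igtp were Dtx3l (0.89) and Dcp2 (0.89), and those most like Irgm1 were Gbp6 (0.88), Gm5431 (0.86) and Naaa (0.85). For Iigp1 they were Supt16 (0.87), H2-T24 (0.87) and Parp14 (0.85), and for Ifi47 Alpk1 (0.91), Atad2b (0.91) and Dgke (0.89). For Tgtp1 the first was Lyrm7 (0.96), followed by Trbd2 (0.88) and Gm5913 (0.85), and for 9930111J21Rik2 Gm12233 (0.87), Gm21464 (0.83) and Gm25483 (0.80), pairs that rest on the split between genotypes. Irgm2 was most like Crebzf (0.95), Tmem168 (0.94) and B130055M24Rik (0.94), 9930111J21Rik1 like Rpl13-ps5, Jmjd4 and Dcaf7 (each 0.95), and Tgtp2 like Eftud1 (0.88), Thrap3 (0.85) and Jmjd1c (0.85).

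Other genes of the pathway were taken from 4 lists, chosen with earlier results of these data known. Of 10 other IRG family genes, 9 were in the files and 4 passed the filter. From T2 to MZ in WT these were Irgq at 0.78 (adjusted p = 2.22e-04 from limma), Gm5431 at 0.14, Gm12250 at 0.12 and Irgc1 at -0.01, and none was called. Irgc1, named after its values were seen, was called higher from T1 to T2 in KO (1.502) and lower from FO to MZ in KO (-1.15) and WT (-1.06). Of the 12 guanylate-binding proteins, large GTPases that act with the IRGs on vacuoles, 9 were tested. From T2 to MZ 3 of these 9 were called higher in KO and 3 in WT, from FO to MZ 4 in KO and 5 in WT, and none was called lower. Their median log2 fold change from T2 to MZ was 0.93 in KO and 0.85 in WT, beside 0.03 and 0.01 over all tested genes and 0.14 and 0.03 over the 9 members. Gbp8 had the largest rise from T2 to MZ in WT at 2.81 (adjusted p = 9.68e-05 from limma), then Gbp7 at 1.61 (adjusted p = 1.92e-04 from limma), and the smallest values were 0.41 for Gbp4 and 0.21 for Gbp9, neither past the threshold.

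Among 15 genes of interferon receptors and JAK-STAT signalling none was called from T2 to MZ in either genotype. In WT their ends were Socs3, a feedback inhibitor, at 0.67 (adjusted p = 0.530 from limma), and Tyk2, a receptor kinase, at 0.40 (adjusted p = 0.0217 from limma), and at the low end Jak1 at -0.52 and Ifnar1, a chain of the type I interferon receptor, at -0.996 (adjusted p = 5.16e-05 from limma), which missed the fold criterion narrowly. Among 15 genes of the autophagy conjugation machinery, which guides IRGs to vacuoles, none was called from T2 to MZ, with Gabarapl1 at 0.98 and Gabarapl2 at 0.34 at the high end and Atg3 at -0.35 and Map1lc3a at -0.45 at the low end in WT. Gabarapl1 was called from FO to MZ in WT, at 1.15, the one call of this list in the 8 comparisons. In KO against WT, again as a description, the mean difference over subsets was above 0 for 6 of 9 members, 2 of 4 other IRG family genes, 9 of 9 guanylate-binding proteins (median 0.23), 10 of 15 interferon signalling genes (median 0.04) and 4 of 15 autophagy genes (median -0.03), beside 7178 of all 12507 tested genes. The median was 0.40 for the members, 0.23 for the other IRG family genes and 0.02 for all tested genes.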

How the data were processed

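The deposited values are RPKM per gene. The authors removed low-quality and adapter reads, aligned single-end reads of 100 bases with TopHat to the mm10 build, discarded those without a unique position and computed RPKM for each replicate. The submitters' notes also name DESeq and edgeR, and no version of the 3 tools was stated in the sources used. Whole reads were recovered from the RPKM steps for all 23194 genes above 0, within 0.01 reads, with 9799 at a length other than the exons of GENCODE M21. The depth was 9003343 to 26386684 reads per library.

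One linear model of 8 groups with a variance trend was fitted to log2(RPKM + 0.5) by limma 3.58.1 (R 4.3.3), for the 12507 genes that exceeded 1 RPKM on average in some group, after the code was tested on simulated data. Benjamini-Hochberg adjustment ran over all tested genes within a comparison. Values were prepared with Python 3.11.15. Nothing says which mice went into which replicate, so p-values measure the spread between these samples. The members and lists were chosen with earlier results of these data known. Named genes are the 9 members, 3 genes most like each (1 gene is not reported here), the 2 largest and 2 smallest changes from T2 to MZ in WT of each list, and genes of chromosome 11 called between KO and WT. Genes beside the members on chromosome 11 were added after their values were seen.

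Alternatives were a pseudocount of 0.1 or 1, no filter, median-ratio scaling, quantile normalization, a replicate block, only the groups compared, no fold criterion, limma-voom on recovered reads, and leaving out each library.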

Additional observations from a re-analysis of the deposited data

How the results depend on the processing

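The number of members called stayed at 0 in all 10 comparisons under each alternative but the dropped fold criterion, which gave 2 from T2 to MZ in KO, 2 in WT, and 1 in KO and 2 in WT from FO to MZ. Leaving out each library in turn left it at 0 throughout. Replicate numbers share only a number in the labels. Deviations of same-numbered libraries of a genotype correlated at 0.0756 (WT T2 and FO) to 0.453 (WT MZ and FO), and with the replicate block 0 members were called in each comparison. Over all genes the block gave 69 calls from T2 to FO in WT against 23, limma-voom gave 15, and fitting only the groups compared gave 0 there and 0 from T1 to T2, against 547 in KO and 530 in WT. Leaving out single libraries gave 0 to 46 from T2 to FO in WT, 268 from T1 to T2 in KO without KO T2 replicate 2, and 306 in WT without WT T2 replicate 2. The cause was not tested. Without the fold criterion the calls were 1461 (KO) and 1459 (WT) from T1 to T2, 3112 and 3604 from T2 to MZ, against 1181 and 1323, and 2787 and 2624 from FO to MZ, against 1041 and 1051. With no filter the interactions gave 18 (T2 to MZ) and 15 (T2 to FO), against 1 each, and 0 to 6 and 0 to 9 when single libraries were left out. Without both T1 replicate 2 libraries, chosen after the data were seen, T2 to FO in WT gave 53. KO minus WT differences of low members depended on the pseudocount, in MZ B-cells 1.52 to 2.95 for Tgtp1, -6.69 to -4.84 for 9930111J21Rik2 and 0.26 to 2.12 for Iigp1, with limma-voom at the far end. The sign of Tgtp2 turned in each subset when 1 library was left out. Values of Iigp1 and of Tgtp1 in WT rest on few reads.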
